A study of Mus musculus with 5 samples.

Results

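Brown fat and adipocyte genes were followed here in cells of the fetal muscle lineage. The 10 genes are Cidea, Ucp1, Prdm16, Ebf2, Pparg, Cebpa, Adipoq, Plin1, Fabp4 and Lpl, taken by name from the deposited table, and all 10 were found among its 25873 named genes. They stand for the alternative brown fat fate of the Pax7 lineage. They were put together after Cidea and Adipoq had been seen to be higher in the libraries labelled Notch2 cKO than in the wild-type libraries. Their own differences are therefore given as a description, and nothing is read from the count of members that the fit over all genes called.

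The cells were tdTomato-positive, lineage-negative cells sorted from limb muscle of C57BL/6J mouse fetuses at E16.5, after stains that included the endothelial marker CD31 and the blood cell markers CD45 and Ter119. There were 2 libraries labelled Notch2 cKO (Pax7-CreER; Notch2f/f; Rosa-tdTomato), 1 labelled Notch1 cKO (Pax7-CreER; Notch1f/f; Rosa-tdTomato) and 2 labelled WT (Pax7-CreER; Rosa-tdTomato). All groups carried the recombinase made from Pax7 and the reporter, and all were exposed to tamoxifen, given orally to the pregnant mother (240 mg/kg, 2 days, starting at E12.5). The WT fetuses are described with no floxed Notch allele. Whether replicates came from separate fetuses or litters is not stated, so p-values rest only on the spread between these libraries. For each gene that spread was taken mostly from all genes tested together, and little from the gene itself. Libraries are named by group and by the tag in the table.

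Brown adipocytes burn fuel to make heat. They share early embryonic ancestors with skeletal muscle, and Pax7-expressing cells labelled early in development contribute to both tissues. PPARG and the C/EBP factors drive the fat cell programme in general, while EBF2 and PRDM16 are known for steering it toward the brown type, with UCP1 as the heat-making protein of its mitochondria. Notch receptors act through the DNA-binding protein RBPJ (CSL), and Notch signalling is known to act on brown fat genes in adipose tissue.

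Promoters of Adipoq, Plin1 and Pparg are printed because they were the members' promoters that held a match to the CSL, C/EBP or EBF motif, and they differ in which. They were picked after the search, which also covered PPAR and NFI motifs that are not marked here. Each is a RefSeq sequence on GRCm38.p6, 5′ to 3′ along the gene, from 250 bases before the start to 50 bases after. Capitals mark matches, on either strand, to the CSL motif TGGGAA, the C/EBP motif TTGCNNAA or the EBF motif CCCNNGGG. The Pparg promoter is the last of its 3 entries, and a gene-level value pools the transcripts of all of them.
Adipoq, chr16:23146286-23146585, plus strand: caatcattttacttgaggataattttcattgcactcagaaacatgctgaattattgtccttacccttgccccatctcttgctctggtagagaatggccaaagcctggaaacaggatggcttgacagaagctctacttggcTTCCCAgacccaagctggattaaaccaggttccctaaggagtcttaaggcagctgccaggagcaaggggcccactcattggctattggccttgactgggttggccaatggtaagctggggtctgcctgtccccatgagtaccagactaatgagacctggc
Plin1, chr7:79732727-79733026, minus strand: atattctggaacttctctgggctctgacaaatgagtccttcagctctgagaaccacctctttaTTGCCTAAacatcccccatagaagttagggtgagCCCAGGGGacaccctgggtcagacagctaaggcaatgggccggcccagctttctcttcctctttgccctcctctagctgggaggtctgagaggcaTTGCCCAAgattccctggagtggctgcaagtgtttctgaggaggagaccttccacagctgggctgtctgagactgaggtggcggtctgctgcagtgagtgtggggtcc
Pparg, chr6:115421816-115422115, plus strand: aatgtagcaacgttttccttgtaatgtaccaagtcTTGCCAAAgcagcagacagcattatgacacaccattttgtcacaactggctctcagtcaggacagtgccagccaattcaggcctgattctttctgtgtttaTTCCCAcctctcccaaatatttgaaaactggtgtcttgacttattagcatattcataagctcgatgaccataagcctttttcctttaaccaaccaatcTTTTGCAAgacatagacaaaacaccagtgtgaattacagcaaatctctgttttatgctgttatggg

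Adipoq held 1 CSL match, Plin1 held 1 EBF and 2 C/EBP matches, and this Pparg promoter held 1 CSL and 2 C/EBP matches. No match to these 3 motifs was found for Prdm16, Ucp1, Cebpa or the other 2 entries of Pparg. Of all 32851 promoters of the same length, 25.6% held a CSL match, 10.8% a C/EBP match and 13.7% an EBF match. Of the PPAR and NFI motifs, only the short forms AGGTCA (PPAR) and TTGGC (NFI) matched. AGGTCA was found in Ucp1 and the other 2 Pparg entries. TTGGC was found in those, in Prdm16, in Adipoq and in the printed Pparg promoter. Of all promoters, 16.3% held AGGTCA and 46.7% held TTGGC. A match is a string of letters and no evidence of binding. Promoters were listed for 6 members (Adipoq, Plin1, Pparg, Prdm16, Ucp1 and Cebpa).

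The read totals implied by the values ran from 20740000 to 28830000 per library. The cells carried the muscle markers of their label: Myog stood at 1655 and 1737 RPKM in Notch2 cKO, 944 in Notch1 cKO, and 1053 and 1272 in WT. RPKM are reads scaled to gene length and to the read total of the library. The targeted genes checked 1 label of the 2. Notch1 read 11.8 and 8.39 RPKM in Notch2 cKO, 2.33 in Notch1 cKO, and 7.26 and 13.5 in WT, lowest in the Notch1 cKO library. Notch2 read 3.35 and 2.03 RPKM in Notch2 cKO, 3.90 in Notch1 cKO, and 2.40 and 4.17 in WT, so the libraries labelled Notch2 cKO overlapped WT and the level of Notch2 did not set them apart. The floxed stretch is not given in the labels, and a gene-level value can include reads from outside it. Notch2 cKO below therefore means the libraries that carry this label, in every direction given. Column headers end in digits that the sources here do not explain: Notch1 cKO Em8 and Notch2 cKO Em3 share one set, Notch2 cKO Em4 and WT Em4 share another, and WT Em2 has its own. Libraries also differed in how many genes they listed at 0, with 12.7% of named genes in Notch2 cKO Em3 and 24.5% in its partner Em4, 26.9% in the Notch1 cKO library, and 31.7% and 31.3% in WT. This moves with any gene of few reads in Notch2 cKO Em3, and its part in the results was not tested.

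Of the 10 members, 6 had a mean of at least 1 RPKM and entered the fit over 11543 genes (Cidea, Adipoq, Fabp4, Pparg, Ebf2 and Lpl), while Prdm16, Ucp1, Plin1 and Cebpa did not. Per kilobase, the order of the means over all libraries was Fabp4 (64.2 RPKM), Lpl (7.22), Adipoq (2.999), Cidea (2.75), Ebf2 (1.38), Pparg (1.08), Prdm16 (0.723), Plin1 (0.468), Ucp1 (0.238) and Cebpa (0.061). Fabp4 lay above 93.5% of named genes and Cebpa above 30.7%. Adipoq exceeded its neighbour Cidea in all 5 libraries, but their counting intervals overlapped in each. Bulk RNA cannot tell fewer cells of a type from less RNA per cell, so none of these levels says how many cells carried the transcript. Intervals below are exact 95% Poisson intervals of the reads behind a value and cover counting error only.

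**Figure D1:**
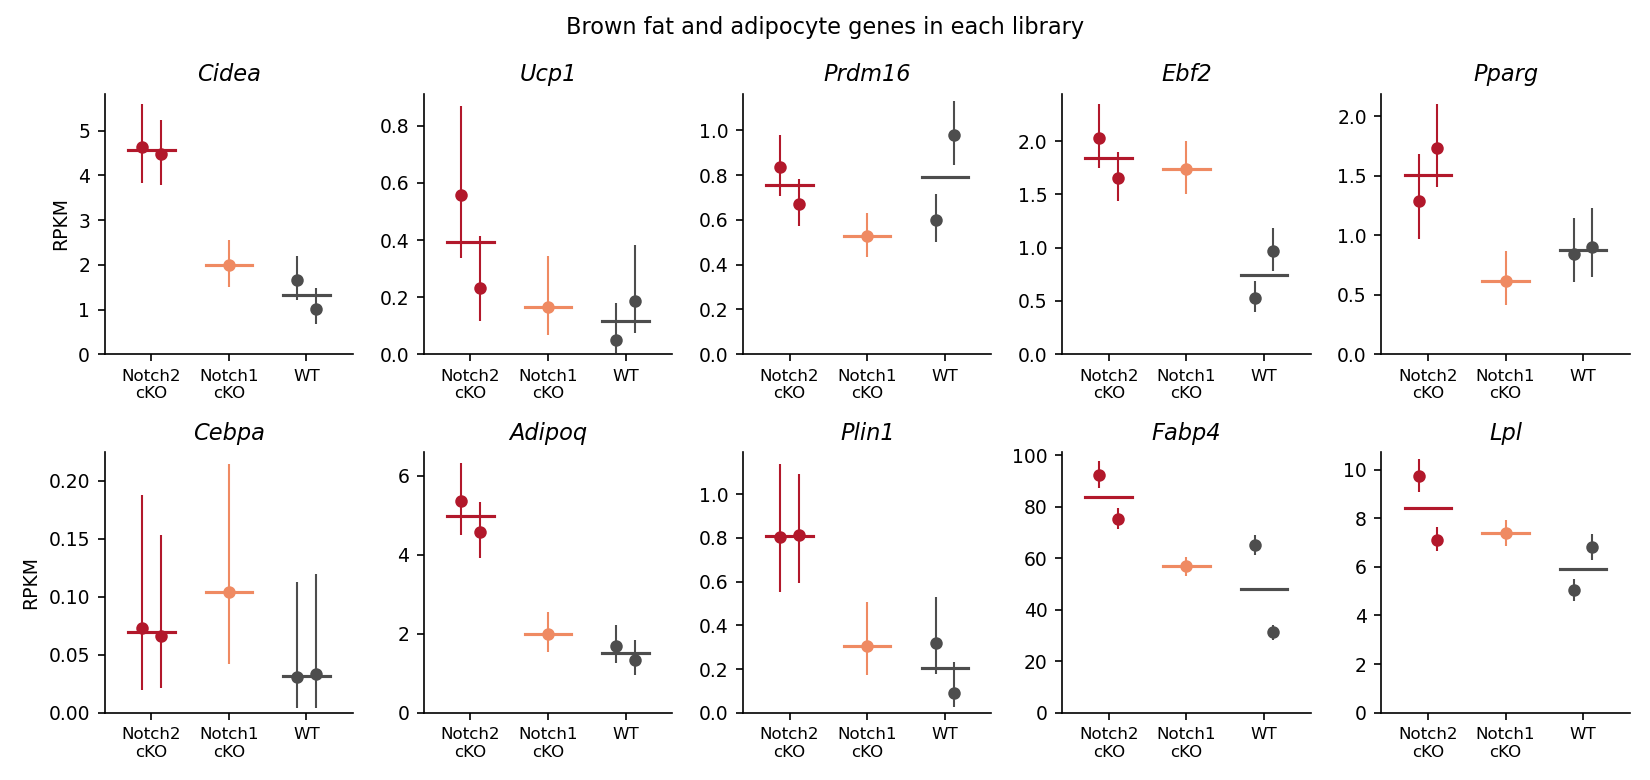
RPKM of each member (vertical axis, from 0, own scale per gene) in the Notch2 cKO, Notch1 cKO and WT libraries. Points are libraries with exact 95% Poisson intervals of their reads and bars are group means: Cidea and Adipoq stand apart in both Notch2 cKO libraries, while the WT values of Prdm16 lie on both sides of the Notch2 cKO values.

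The genes of the brown type came first. Cidea (ENSMUSG00000024526.9, GRCm38 chromosome 18, 67343604 to 67367785, plus strand) encodes a lipid droplet protein abundant in brown fat. Its levels were 4.64 (Em3) and 4.47 RPKM (Em4) in Notch2 cKO, 1.98 in Notch1 cKO, and 1.65 (Em2) and 1.01 (Em4) in WT. Both Notch2 cKO libraries lay above all others, and the intervals of 3.82 to 5.58 and 3.78 to 5.25 RPKM did not reach those of WT, which ended at 2.199 and 1.477 RPKM. The group means were 4.55 ± 0.120 RPKM in Notch2 cKO and 1.33 ± 0.452 in WT (SD, n = 2 each), a ratio of 3.41, and rested on 112 and 150 reads against 47 and 27.

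Ucp1 (ENSMUSG00000031710.4, chromosome 8, 83290352 to 83298452, plus strand), the uncoupling protein that defines the working brown adipocyte, had few reads in any library. It had 19 and 11 reads in Notch2 cKO (0.557 and 0.232 RPKM), 7 reads in Notch1 cKO (0.167 RPKM), and 2 and 7 reads in WT (0.0498 and 0.186 RPKM). The lower Notch2 cKO library, with an interval of 0.116 to 0.415 RPKM, overlapped both the Notch1 cKO and the WT libraries. The other, at 0.336 to 0.87 RPKM, lay above WT Em2 (up to 0.18) and overlapped WT Em4 (up to 0.384). Both Notch2 cKO values lay above those of the other libraries, while the Notch1 cKO value lay between the WT values.

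Prdm16 (ENSMUSG00000039410.16, chromosome 4, 154316125 to 154636873, minus strand) encodes the co-regulator that favours brown fat over muscle in cultured precursors. Its values were 0.835 and 0.673 RPKM in Notch2 cKO, 0.527 in Notch1 cKO, and 0.599 and 0.981 in WT. The WT libraries enclosed both Notch2 cKO values, and the Notch1 cKO value lay below all 4 others. Prdm16 was the 1 member of the 10 whose Notch2 cKO values did not both exceed WT.

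Ebf2 (ENSMUSG00000022053.13, chromosome 14, 67233292 to 67430918, plus strand) encodes a transcription factor of brown preadipocytes that helps PPARG find brown fat genes. Its values were 2.03 and 1.65 RPKM in Notch2 cKO, 1.74 in Notch1 cKO, and 0.528 and 0.967 in WT. Here the Notch1 cKO library stood with the Notch2 cKO pair, and the 3 knockout libraries did not overlap WT. On the log2(RPKM + 1) scale the difference from WT was 0.71 (SE 0.30) in Notch2 cKO and 0.66 (SE 0.37) in Notch1 cKO.

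Of the general regulators, Pparg (ENSMUSG00000000440.12, chromosome 6, 115360951 to 115490399, plus strand) is the master factor of fat cell differentiation. Levels were 1.29 and 1.73 RPKM in Notch2 cKO, 0.612 in Notch1 cKO, and 0.846 and 0.904 in WT. The Notch2 cKO libraries were above both WT libraries and the Notch1 cKO library below them, with differences from WT of 0.41 (SE 0.29) and −0.22 (SE 0.36). The intervals of Notch2 cKO Em3 (0.965 to 1.685 RPKM) and Notch1 cKO (0.4155 to 0.868) overlapped both WT intervals (0.607 to 1.148 and 0.649 to 1.227). That of Notch2 cKO Em4 began above them, at 1.407 RPKM. Notch2 cKO minus Notch1 cKO was 0.63 (SE 0.36). Cebpa (ENSMUSG00000034957.10, chromosome 7, 35119293 to 35121928, plus strand), which works beside PPARG in maturing fat cells, had 4 and 5 reads in Notch2 cKO, 7 in Notch1 cKO, and 2 and 2 in WT, too few to compare.

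Among the products of mature fat cells, Adipoq (ENSMUSG00000022878.5, chromosome 16, 23146536 to 23158028, plus strand) encodes the hormone adiponectin. The libraries gave 5.36 and 4.59 RPKM in Notch2 cKO, 2.00 in Notch1 cKO, and 1.70 and 1.35 in WT. As with Cidea, both Notch2 cKO libraries lay above all others. Means were 4.98 ± 0.546 RPKM in Notch2 cKO and 1.52 ± 0.245 in WT (SD, n = 2 each), a ratio of 3.27 on 137 and 163 reads against 51 and 38.

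Plin1 (ENSMUSG00000030546.14, chromosome 7, 79720218 to 79732903, minus strand), the perilipin that coats the droplets of mature adipocytes, had a similar order at a lower level. Its level was 0.805 and 0.815 RPKM in Notch2 cKO (32 and 45 reads), 0.306 in Notch1 cKO (15 reads), and 0.321 and 0.0913 in WT (15 and 4 reads). The Notch2 cKO intervals began at 0.551 and 0.594 RPKM, above the ends of the Notch1 cKO and WT intervals at 0.505, 0.529 and 0.234 RPKM.

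Fabp4 (ENSMUSG00000062515.3, chromosome 3, 10204088 to 10208576, minus strand) encodes a fatty acid carrier of adipocytes that capillary endothelium and macrophages also make. Libraries held 92.5 and 75.4 RPKM in Notch2 cKO, 56.9 in Notch1 cKO, and 65.1 and 31.2 in WT. The WT libraries were further apart than the lower Notch2 cKO library was from WT Em2, so the size of the difference hung on the WT library: 0.87 (SE 0.27) with both, 0.35 without WT Em4 and 1.39 without WT Em2.

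Lpl (ENSMUSG00000015568.16, chromosome 8, 68880491 to 68907448, plus strand), the lipase that frees fatty acids from circulating lipoproteins and is also made by muscle, stood at 9.74 and 7.12 RPKM in Notch2 cKO, 7.39 in Notch1 cKO, and 5.04 and 6.80 in WT. Both Notch2 cKO values lay above both WT values, and the Notch1 cKO value lay between the Notch2 cKO values. The intervals of the lower Notch2 cKO library and of WT Em4 overlapped (6.64 to 7.62 and 6.28 to 7.35 RPKM).

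Set side by side, the differences from WT on the log2(RPKM + 1) scale were 1.26 (SE 0.31) in Notch2 cKO and 0.37 (SE 0.39) in Notch1 cKO for Cidea, and 1.24 (SE 0.32) and 0.25 (SE 0.39) for Adipoq. For Fabp4 they were 0.87 in Notch2 cKO and 0.33 in Notch1 cKO (−0.19 in Notch1 cKO without WT Em4), and for Lpl 0.44 and 0.29. Both comparisons use the same WT libraries. In Notch2 cKO against WT the limma fit called 2 of the 6 members tested higher (Cidea and Adipoq) and none lower, where 0.537% of all genes were called, 0.355% higher and 0.182% lower, and since the members were chosen on this contrast nothing is read from the count. No member was called in Notch1 cKO against WT, where 0.0693% of all genes were called (0.0433% higher and 0.026% lower), nor in Notch2 cKO against Notch1 cKO (0.485% called, 0.277% higher and 0.208% lower). At an unadjusted p under 0.05 there were 4 of the 6 members in Notch2 cKO against WT, none in Notch1 cKO against WT and 2 between the knockouts, beside 7.63%, 1.85% and 8.66% of all genes tested. The difference between the knockouts was 0.90 (SE 0.39) for Cidea and 0.99 (SE 0.39) for Adipoq.

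**Figure D2:**
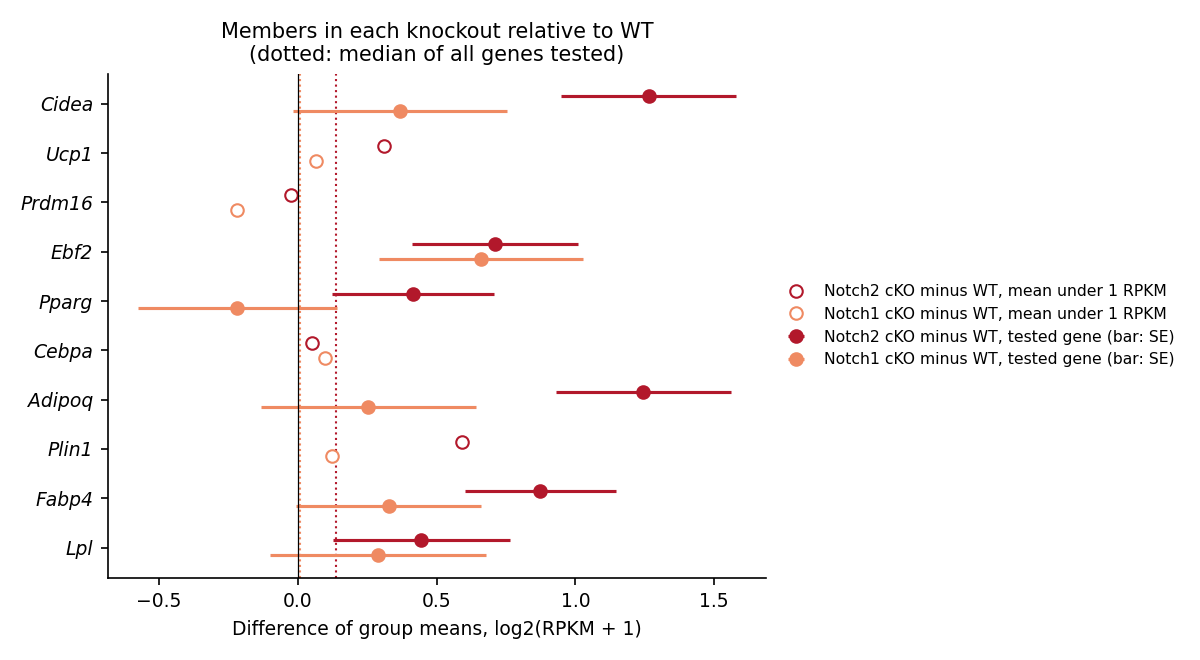
Difference of each member from WT on the log2(RPKM + 1) scale (horizontal axis) in Notch2 cKO and Notch1 cKO. Filled points are the 6 genes tested, with SE bars, open points the 4 genes with a mean under 1 RPKM, and dotted lines the medians of all genes tested (0.14 and 0.01): Cidea and Adipoq lie farthest right in Notch2 cKO, and Ebf2 is at a similar place in both.

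Both Notch2 cKO libraries exceeded both WT libraries for 6 of the 6 members tested and 3 of the 4 others. Of all genes tested 28.3%, and of the genes under 1 RPKM 31.2%, also showed this pattern. The reverse held for no member (9.44% and 2.45% of genes). Since the members were chosen on this contrast, nothing is read from these counts. Pparg passed the 1 RPKM limit only through its Notch2 cKO values, and the 3 include Ucp1 and Cebpa, whose reads are too few to compare. With Notch2 cKO Em4 alone, a count added after the data were seen, 6 of 6 and 3 of 4 exceeded both WT libraries (45.8% and 37.6% of genes). Genes with the pair above WT also have Em4 above WT, so this count could not be lower and adds no support. The Notch1 cKO library exceeded both WT libraries for 4 of the 6 (24.3% of genes) and 1 of the 4 (31.7%), and lay below both for 1 of the 6, Pparg (26.1%), and 1 of the 4, Prdm16 (12.2%). Where the header digits are shared, Notch2 cKO Em4 minus WT Em4 was 1.44 for Cidea, 1.25 for Adipoq, 1.25 for Fabp4, 0.73 for Plin1 and 0.52 for Pparg. It was 0.43 for Ebf2, 0.06 for Lpl, 0.05 for Ucp1, 0.04 for Cebpa and −0.24 for Prdm16. For Lpl, Notch2 cKO Em4 and WT Em4 were therefore nearly level. Ucp1 (11 against 7 reads) and Cebpa (5 against 2 reads) lay far below the 1 RPKM added on this scale. Their differences near 0 are thus no sign of level values, and the reads are too few to compare. The other pair that shares digits sets the knockouts side by side. Notch2 cKO Em3 minus Notch1 cKO Em8 was 0.92 for Cidea, 1.08 for Adipoq, 0.69 for Fabp4, 0.51 for Pparg and 0.47 for Plin1. In that pair it was 0.42 for Ucp1, 0.36 for Lpl, 0.26 for Prdm16, 0.15 for Ebf2 and −0.04 for Cebpa.

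With 1 library left out at a time, the difference between Notch2 cKO and WT ran from 1.07 to 1.46 for Cidea and from 1.15 to 1.34 for Adipoq. The fit over all genes no longer called either gene when either Notch2 cKO library (Em3 or Em4) or either WT library (Em2 or Em4) was the one left out.

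**Figure D3:**
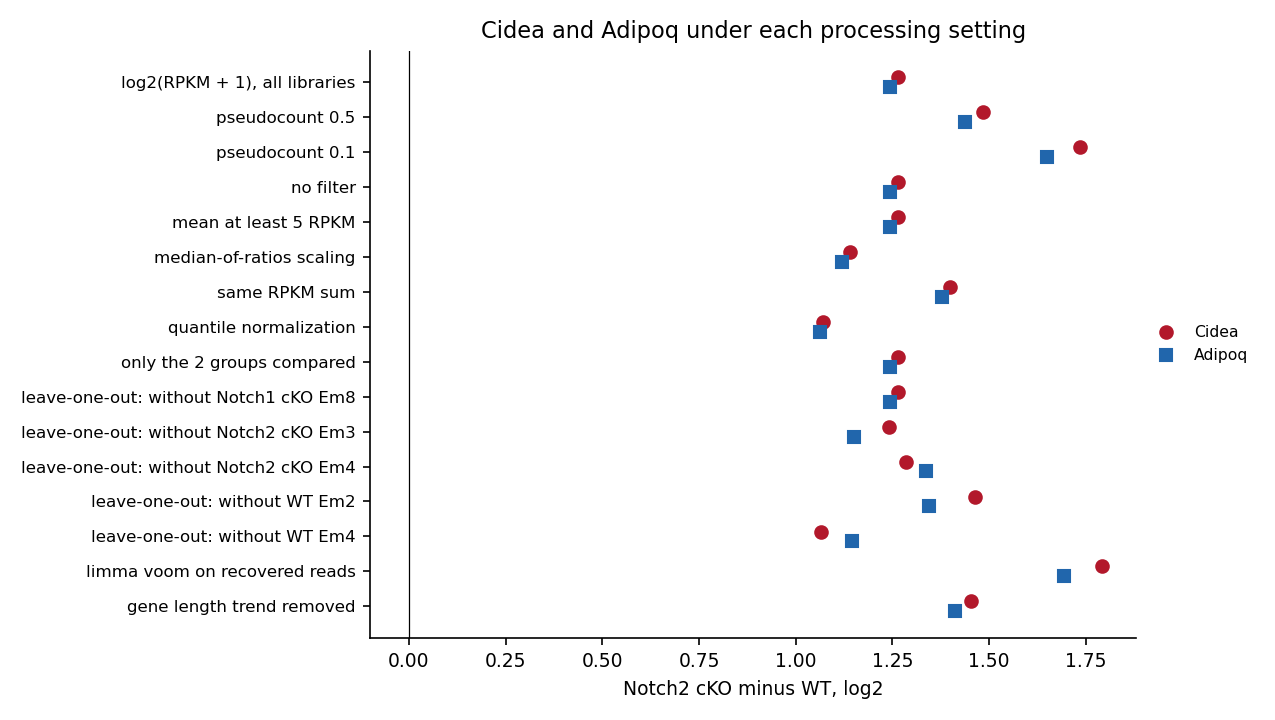
Notch2 cKO minus WT for Cidea and Adipoq (horizontal axis, log2) under each processing setting (vertical axis). Circles are Cidea and squares Adipoq: every value is above 1, from 1.07 to 1.79 for Cidea and from 1.06 to 1.69 for Adipoq over the alternatives, of which the 2 groups alone and the fit without Notch1 cKO Em8 are the same fit.

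Genes whose profile over the 5 libraries was most like these 2 were ranked by the root-mean-square distance between centred log2(RPKM + 1) values. Nearest to Cidea was Adipoq (0.0884), then Cntfr (0.117), A930005H10Rik (0.121), Zfp81 (0.127) and Mir1938 (0.161). Nearest to Adipoq were Cntfr (0.0764), Cidea (0.0884), Polr3gl (0.11), Zfp81 (0.138) and Mir3112 (0.147). Among the other members tested, Fabp4 ranked 59 for Cidea and 230 for Adipoq, whereas Ebf2, Pparg and Lpl ranked between 797 and 1950. The 4 members under 1 RPKM were not ranked. Both genes prompted the choice of the members, so their likeness is a description.

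Outside the members, 7 lists of fat genes held 141 genes, of which 140 were in the table and 87 were tested. These lists were drawn up with earlier results of these data known. In Notch2 cKO against WT, none was called higher (limma, 0.355% of all genes) and 1 was called lower (0.182% of all genes), with 10 at an unadjusted p under 0.05 (11.5%, beside 7.63% of all genes tested). Of the 87, 61 lay above 0 (70.1%, beside 68.1% of all genes), with a median of 0.18 against 0.14 for all genes tested. In Notch1 cKO against WT 1 was called higher and none lower, 57 of 87 lay above 0 (65.5%, beside 51.5% of all genes) and the median was 0.09 against 0.01 for all genes.

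**Figure D4:**
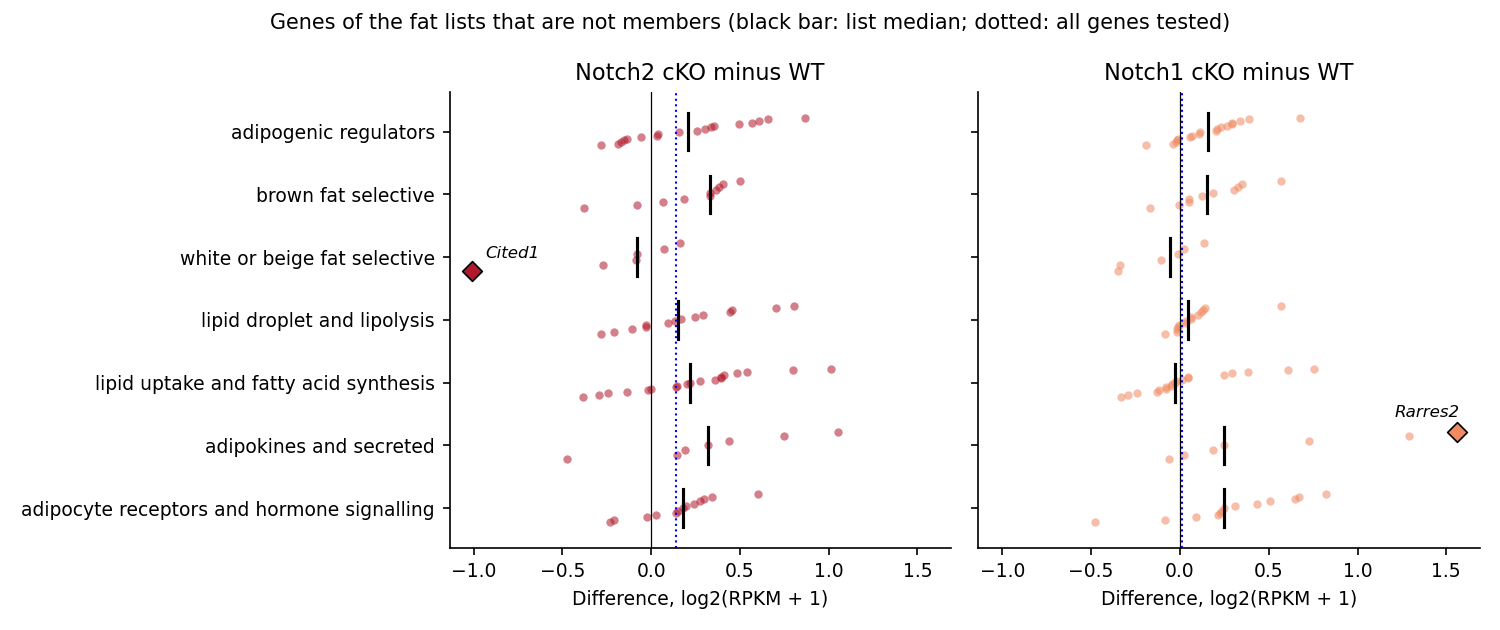
Difference from WT (horizontal axis, log2(RPKM + 1)) of the tested genes in 7 fat lists that are not members, in Notch2 cKO (left) and Notch1 cKO (right). Diamonds are the genes called by limma, Cited1 at −1.01 and Rarres2 at 1.56, and the other genes of the lists spread on both sides of the dotted medians of all genes (0.14 and 0.01).

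Of 18 adipogenic regulators tested, none was called and 12 lay above 0 in Notch2 cKO, with a median of 0.21. This and the counts above 0 in Notch2 cKO that follow stand beside the 68.1% of all genes above 0. Ebf1, a relative of Ebf2 that also drives fat cell formation, had the smallest p. Ebf1 read 2.04 and 1.85 RPKM in Notch2 cKO, 1.58 in Notch1 cKO, and 0.437 and 0.817 in WT (0.86, SE 0.30, limma adjusted p = 0.29). As for Ebf2, all 3 knockout libraries lay above both WT libraries. Cebpd, an early regulator of fat cell differentiation and the most abundant of the list, stood at 44.7 and 56.2 RPKM in Notch2 cKO, 63.6 in Notch1 cKO, and 60.8 and 61.7 in WT.

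Of the brown fat selective genes 10 were tested, none was called and 8 lay above 0 in Notch2 cKO, with a median of 0.33. The most abundant was Slc29a1, a nucleoside transporter gene, at 122 and 158 RPKM in Notch2 cKO, 106 in Notch1 cKO, and 92.6 and 122 in WT. Pdk4, whose kinase turns mitochondria from glucose to fat as fuel, stood at 4.55 and 4.79 RPKM in Notch2 cKO, 4.09 in Notch1 cKO, and 2.80 and 3.22 in WT (0.50, SE 0.32, limma adjusted p = 0.741). Under 1 RPKM lay 13 further genes of the list, and 9 of them were higher in both Notch2 cKO libraries than in both WT libraries, a pattern shown by 31.2% of genes at this level. With Notch2 cKO Em4 alone 10 of the 13 exceeded both WT libraries, against 37.6% of genes at this level. That count includes the 9 and could not be lower.

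Of 6 white or beige fat selective genes tested, 1 was called. Cited1, a transcriptional co-activator gene used as a beige fat marker, fell to 98.5 and 106 RPKM in Notch2 cKO, with 162 in Notch1 cKO and 220.4 and 193 in WT (−1.01, SE 0.27, limma adjusted p = 0.0471). The groups did not overlap. Its limma adjusted p became 0.415 when Notch2 cKO Em3 was left out, 0.537 without Notch2 cKO Em4 and 0.437 without WT Em2. Nnat, the most abundant of the list, stood at 247 and 290.0 RPKM in Notch2 cKO, 263 in Notch1 cKO, and 285 and 280.2 in WT.

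In the lipid lists no gene was called. Of 14 lipid droplet and lipolysis genes tested, 9 lay above 0 in Notch2 cKO with a median of 0.15, and of 19 lipid uptake and fatty acid synthesis genes 14 did, with a median of 0.22. Cd36, the fatty acid receptor of fat, muscle and capillaries, stood at 2.91 and 3.89 RPKM in Notch2 cKO, 1.19 in Notch1 cKO, and 1.12 and 1.21 in WT (1.01, SE 0.31, limma adjusted p = 0.148). Like Cidea and Adipoq it separated the Notch2 cKO pair from the other 3 libraries. Dgat2, which makes triglyceride, stood at 6.43 and 12.4 RPKM in Notch2 cKO, 5.29 in Notch1 cKO, and 3.84 and 5.71 in WT (0.81, SE 0.33, limma adjusted p = 0.485).

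The most abundant gene of each lipid list had both Notch2 cKO libraries below both WT libraries, without passing the test. Fabp5, the carrier found in many cell types, stood at 397 and 407 RPKM in Notch2 cKO, 506 in Notch1 cKO, and 641 and 429.5 in WT. Fitm1, a droplet-forming protein gene of muscle, stood at 136 and 154 RPKM in Notch2 cKO, 180.2 in Notch1 cKO, and 188 and 165 in WT.

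Of 7 adipokines and secreted factors tested, 1 was called, in Notch1 cKO. Rarres2, which encodes chemerin, rose to 35.0 RPKM in Notch1 cKO, against 12.1 and 10.4 in WT, and stood at 11.03 and 15.1 in Notch2 cKO. The difference was 1.56 (SE 0.36, limma adjusted p = 0.0443) in Notch1 cKO against WT, and −1.37 (SE 0.36, adjusted p = 0.0473) in Notch2 cKO against Notch1 cKO. Both calls were lost whichever Notch2 cKO or WT library was left out. The limma adjusted p in Notch1 cKO against WT became 0.0766 or 0.0977 without 1 Notch2 cKO library (Em3 or Em4) and 0.193 or 0.383 without 1 WT library (Em2 or Em4). That between the knockouts became 0.334 or 0.113 without 1 Notch2 cKO library and 0.0634 or 0.0569 without 1 WT library, in the same order. Metrn, the most abundant of the list, stood at 16.9 and 20.6 RPKM in Notch2 cKO, 20.1 in Notch1 cKO, and 13.3 and 21.1 in WT. The white fat hormone gene Lep had at most 0.252 RPKM in any library.

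Of 13 adipocyte receptor and hormone signalling genes tested, none was called, with 10 above 0 in Notch2 cKO and 11 in Notch1 cKO (51.5% of all genes). Cav1, the caveolin of adipocytes and endothelium, stood at 26.0 and 59.0 RPKM in Notch2 cKO, 46.0 in Notch1 cKO, and 25.5 and 25.6 in WT. Cavin1, its partner, stood at 34.9 and 48.8 RPKM in Notch2 cKO, 67.5 in Notch1 cKO, and 31.0 and 56.9 in WT.

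Markers of other cell types were read beside these genes. Endothelial markers summed to 25.0 and 29.5 RPKM over 10 genes in Notch2 cKO, 43.4 in Notch1 cKO, and 23.2 and 29.4 in WT, with none called. Macrophage and blood cell markers summed to 13.97 and 31.8 RPKM over 12 genes in Notch2 cKO, 16.47 in Notch1 cKO, and 14.03 and 20.5 in WT, with none called. Neither sum was higher in both Notch2 cKO libraries than in both WT libraries, but the abundant genes Egfl7 (endothelial) and Cd68 (macrophage) weigh heavily in them. Of the genes under 1 RPKM, 2 of 5 endothelial and 4 of 8 macrophage and blood cell genes were higher in both, among them Pecam1 and Ptprc (31.2% of all genes at this level). Of those tested, 1 of 5 and 0 of 4 were (28.3% of all genes tested). Mast cell markers summed to 12.4 and 31.4 RPKM over 8 genes in Notch2 cKO, 1.26 in Notch1 cKO, and 3.34 and 9.10 in WT, and the protease genes Tpsb2 and Cpa3 were called higher in Notch2 cKO than in WT. The mast cell sum was higher in both Notch2 cKO libraries than in the other 3, as Cidea and Adipoq were.

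The list of adipocyte progenitor and interstitial fibroblast markers, which includes Pparg, summed to 595 and 794 RPKM over 16 genes in Notch2 cKO, 813 in Notch1 cKO, and 413 and 629 in WT. Of its genes tested, 12 of 13 lay above 0 in Notch2 cKO against WT, beside 68.1% of all genes. Their median was 0.47, with 0.14 for all genes tested. Notch1 cKO against WT gave the same count, but beside 51.5% of all genes, and a median of 0.72 (0.01 for all genes tested). Mfap5, a microfibril gene of fibroblasts, was called higher in Notch1 cKO. Tendon and cartilage markers summed to 53.1 and 211 RPKM over 11 genes in Notch2 cKO, 69.6 in Notch1 cKO, and 49.8 and 72.1 in WT, high in Notch2 cKO Em4 alone, and the cartilage gene Matn1 was called between the knockouts. Erythroid markers summed to 521 and 449 RPKM over 8 genes in Notch2 cKO, 1749 in Notch1 cKO, and 979 and 1219 in WT, with 3 globin genes called lower in Notch2 cKO than in WT. Pericyte and smooth muscle markers (772 and 824 RPKM in Notch2 cKO, 750.2 in Notch1 cKO, 611 and 691 in WT) and nerve and Schwann cell markers (7.52 and 8.13 in Notch2 cKO, 4.62 in Notch1 cKO, 4.13 and 4.88 in WT) had no gene called. Nor had the 12 myogenic genes, which summed to 2745 and 2944 RPKM in Notch2 cKO, 1847 in Notch1 cKO, and 2019.7 and 2380.4 in WT. The pericyte, nerve and myogenic sums, like Cidea and Adipoq, were higher in both Notch2 cKO libraries than in the other 3. Single genes made up most of 2 of these sums, Acta2 of the pericyte sum and Myog of the myogenic sum. Acta2 stood at 512 and 525 RPKM in Notch2 cKO, 453 in Notch1 cKO, and 381 and 355 in WT. Of the genes tested, 2 of 5 pericyte and 9 of 12 myogenic genes lay above 0 in Notch2 cKO against WT, beside 68.1% of all genes. Of the pericyte genes under 1 RPKM, 5 of 5 were higher in both Notch2 cKO libraries than in both WT libraries (31.2% of genes at this level).

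Dissociation stress genes summed to 3239 and 2166.03 RPKM over 12 genes in Notch2 cKO, 2499.6 in Notch1 cKO, and 1729 and 2207 in WT. The heat shock genes Hspa1a and Hspa1b were called higher in Notch2 cKO, and both were high in Notch2 cKO Em3 alone, with Hspa1a at 120.2 and 4.08 RPKM in Notch2 cKO, 7.92 in Notch1 cKO, and 2.11 and 3.82 in WT. The part of other cells and of stress in the members' differences was not tested.

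Exonic bases of Prdm16, Ebf2 and Cebpa are shared with B230104I21Rik, Gm10860 and Gm45091 in GENCODE M21, and the sources here do not say whether the authors' counting used strand, so the values of these 3 members may include reads of their neighbours.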

How the data were processed

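RNA of the sorted cells was made into SMART-Seq v4 libraries and read as paired ends, per the labels' protocols. The authors deposited RPKM values, per the file headers, for 27179 rows and 5 libraries. Of software and builds, the submitters' processing notes list bcl2fastq 2.20.0 and mm10. The sources used here name no aligner, counter or annotation. Rows without a gene name (1306, holding 2.19% to 3.07% of a library's summed RPKM) were left out. Columns name a group but no replicate number, so each was assigned to its group only.

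Reads were recovered from the RPKM values: ratios of low values gave relative depth, and 96.8% of the 4997 gene lengths scanned came out whole within 0.02. Each gene then took the shortest length giving whole reads in every library (within 0.001, slightly more for large counts), and recovered reads summed to between 99.15% and 99.25% of the totals.

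Groups were compared on log2(RPKM + 1), a scale that understates the change of low genes, by limma 3.58.1 with a mean-variance trend (R 4.3.3). One mean was fitted per group, over the 11543 genes averaging 1 RPKM or more. It left 2 residual and 103.84 prior degrees of freedom. Two-sided p-values were Benjamini-Hochberg adjusted over those genes, with calls at 0.05. Since Notch1 cKO has 1 library, its spread is taken from the other groups.

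The members and lists were chosen with earlier results of these data known. Named were all members, and per fat list the most abundant gene and every gene called. Where none was called, that of smallest p in Notch2 cKO against WT was named. Marker lists were given by their sums and by the genes called against WT. Between the knockouts only Matn1 was described. Also called there were Fosb, Tpsb2, Cma1, Cpa3, Hba-a1, Hba-a2, Hbb-bs and Hbb-b1. Alternatives were other pseudocounts, filters and scalings, the 2 groups alone, leaving out each library, voom on recovered reads and removal of the length trend. Positions are those of GENCODE M21, matched by symbol.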

Additional observations from a re-analysis of the deposited data

Results flagged for a closer look

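Rarres2, the chemerin gene, was singled out because, of the members and fat lists, it alone passed the test between the knockouts, with a Notch2 cKO minus Notch1 cKO difference of −1.37 on the log2(RPKM + 1) scale (limma adjusted p = 0.0473). It rests on a single Notch1 cKO library. The sum of the adipocyte progenitor and interstitial fibroblast markers was also highest in that library, at 813 RPKM. This sum was 595 (Em3) and 794 (Em4) in Notch2 cKO, and 413 and 629 in WT. Dlk1 weighs heavily in it, at 404 RPKM in Notch1 cKO and 381 in Notch2 cKO Em4, so the sum says little of the other genes of the list. Rarres2 stood at 35.0 RPKM in Notch1 cKO and 15.1 in Notch2 cKO Em4. Any link of Rarres2 to these markers was not tested.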

How the results depend on the processing

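Cidea and Adipoq were above 0 in Notch2 cKO against WT in 15 of 15 alternatives, from 1.07 to 1.79 and from 1.06 to 1.69, though the 2 groups alone and the fit without Notch1 cKO Em8 are the same fit. Of the 13 that gave these genes a p (not the limit of 5 RPKM or the length trend), 4 called Cidea and 3 Adipoq, that fit counted both times. Pparg, Ebf2, Fabp4, Lpl, Ucp1 and Plin1 were also above 0 in each alternative run, Cebpa in 12 of 14 and Prdm16 in 4 of 14. The 62 genes called in Notch2 cKO against WT became 0 with no filter (1050 at an unadjusted p under 0.05), 33 at a mean of at least 5 RPKM, 26 with median-of-ratios scaling, 28 at the same RPKM sum, 5 with quantile normalization and 1 with voom, and 13 to 287 without 1 library (39 when Notch2 cKO Em4 was left out, 13 for WT Em2 and 287 for WT Em4). The 41 higher and 21 lower became 26 and 2 at the same RPKM sum and 14 and 12 with median-of-ratios scaling. The 8 called in Notch1 cKO against WT became 15 at a pseudocount of 0.1, 0 with no filter (301 unadjusted), 3 at the same sum, 1 with quantile normalization, 3 with voom, and 1 to 5 without 1 library. The 56 called between the knockouts became 0 with no filter (983 unadjusted), 32 with median-of-ratios scaling, 27 at the same sum, 11 with quantile normalization, 14 with voom, and 35 to 67 without 1 library. The cause was not tested. The median difference of the 10 members was 0.52 in Notch2 cKO against WT. It was 0.71 and 1.03 at pseudocounts of 0.5 and 0.1, 0.43 with median-of-ratios scaling, 0.63 at the same sum, 0.34 with quantile normalization and 0.45 to 0.62 without 1 library. In Notch1 cKO against WT it was 0.19, with 0.26 and 0.37 at the smaller pseudocounts, 0.13 with quantile normalization and 0.13 to 0.19 without 1 library. Between the knockouts it was 0.36, with 0.48 and 0.68 at the smaller pseudocounts, 0.43 at the same sum, 0.25 with quantile normalization and 0.27 to 0.44 without 1 library. The cartilage marker Matn1 ranged from −0.021 (without Notch2 cKO Em4, a reversed direction) to 4.47 (without Notch2 cKO Em3) between the knockouts. Scaling moved the median of all genes in Notch2 cKO against WT from 0.14 to 0.00 (median-of-ratios) or 0.28 (same sum). No paired analysis was possible because the columns of the table carry no replicate number. Depth limits Ucp1, Cebpa and Plin1, with at most 45 reads in any library.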

Other observations

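Several fat genes under the 1 RPKM limit, chosen here after their values were seen and so given with no test, had both Notch2 cKO libraries above the other 3, as Cidea and Adipoq did. Of all genes at this level, 31.2% had both Notch2 cKO libraries above both WT libraries. The share above the Notch1 cKO library as well was not counted. Cidec, a droplet-fusing relative of Cidea, had 54 and 59 reads in Notch2 cKO (1.53 and 1.20 RPKM), 19 in Notch1 cKO (0.437 RPKM), and 13 and 1 in WT (0.313 and 0.0257 RPKM). Plin5, a perilipin of fat-burning tissues, read 0.638 and 0.561 RPKM in Notch2 cKO, 0.249 in Notch1 cKO, and 0.161 and 0.15 in WT. Lhx8, a homeobox gene used as a brown fat marker, had 11 and 25 reads in Notch2 cKO, 3 in Notch1 cKO, and 0 and 3 in WT. Other brown fat markers did not: Zic1, which was above the limit, read 0.864 and 0.456 RPKM in Notch2 cKO, 1.68 in Notch1 cKO, and 1.17 and 1.11 in WT, with the lowest values in Notch2 cKO. Nrg4, under the limit, read 0.125 and 0.216 RPKM in Notch2 cKO, 0.1015 in Notch1 cKO, and 0.276 and 0.25 in WT. Acot11, Dio2, Plin4 and Cideb, also under the limit and in the fat lists, lacked the pattern too.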
